A study of Mus musculus with 12 samples.

Results

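Acads and 9 related genes (Acadm, Acadl, Acadvl, Acadsb, Acad8, Acad9, Ivd, Gcdh and Hadh) were examined in mouse spleen. The members were chosen by gene symbol: each probe set whose annotated symbol was exactly 1 of these 10 names was taken, which gave 17 probe sets of 45037 tested and 10 genes of 18193 named. The list was drawn up because BALB/cByJ mice are known for short-chain acyl-CoA dehydrogenase deficiency, and with the values of these arrays already known, so the colony differences of the members are given below as descriptions, with no p-value and nothing read from their calls. Spleens came from female mice of 2 BALB/c colonies, BALB/cJ and BALB/cByJ. In each colony 3 mice were left untreated (naïve) and 3 received a single intraperitoneal injection of cartilage proteoglycan (PG, 100 µg protein) emulsified with 2 mg of the adjuvant dimethyldioctadecyl-ammonium bromide (DDA), with all spleens taken 12 days later. The labels give no age and no adjuvant-only group, so PG and adjuvant cannot be told apart. Each of the 12 arrays held RNA from a 50 mg piece of a separate spleen, so all cell types of the organ were measured together. PG immunization is used to induce arthritis in BALB/c mice, and the arrays addressed which spleen genes differ between the colonies and after immunization.

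Acyl-CoA dehydrogenases are mitochondrial flavoenzymes that open each round of fatty acid β-oxidation by removing hydrogen from an acyl-CoA, and they pass the electrons through electron transfer flavoprotein to the respiratory chain. The family divides the work by substrate: Acads, Acadm, Acadl and Acadvl take short, medium, long and very long fatty acyl chains, while Acadsb, Acad8, Ivd and Gcdh act in the breakdown of isoleucine, valine, leucine and lysine with tryptophan. Acad9 is known best for assembling respiratory complex I, and Hadh, which is not an acyl-CoA dehydrogenase, carries out a later step of β-oxidation. BALB/cByJ mice are known to lack short-chain acyl-CoA dehydrogenase activity because of a deletion within Acads. The colonies' alleles were not measured here.

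The promoters of the pair of genes with the widest colony contrasts among the members, Acads and Ivd, are shown so that their upstream sequences can be set side by side. Both come from RefSeq (mouse genome GRCm38.p6, the C57BL/6J reference, not the colonies' own alleles) and end before the gene's outermost annotated start. Capitals mark a GC box (GGGCGG or its reverse complement CCGCCC) in Acads and CCAAT boxes (CCAAT or ATTGG) in Ivd. Acads lies on the minus strand at chr5:115119347-115119596 and Ivd on the plus strand at chr2:118861744-118861958.
Acads: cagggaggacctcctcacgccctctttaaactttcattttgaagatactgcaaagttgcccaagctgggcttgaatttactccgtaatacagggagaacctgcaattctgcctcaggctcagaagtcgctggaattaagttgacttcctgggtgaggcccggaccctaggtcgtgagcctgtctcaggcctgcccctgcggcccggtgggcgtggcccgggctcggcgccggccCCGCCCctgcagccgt
Ivd: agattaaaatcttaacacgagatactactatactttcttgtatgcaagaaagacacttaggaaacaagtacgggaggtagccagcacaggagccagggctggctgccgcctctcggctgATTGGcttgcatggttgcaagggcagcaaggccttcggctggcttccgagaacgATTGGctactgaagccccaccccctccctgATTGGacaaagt
The Acads stretch (250 bases) held 1 GC box and no CCAAT box, whereas the shorter Ivd stretch (215 bases) held 3 CCAAT boxes and no GC box. The full window of 250 bases of Ivd, which ran past the gene's outermost annotated start, held 4 CCAAT boxes. Of the 10 members 9 had a promoter entry (Acad9 had none). The first 250 bases of the entry held a GC box in 6 of these 9 and a CCAAT box in 4. Over all 32851 promoters of the same length 32.7% held a GC box and 33.8% a CCAAT box. The nuclear receptor half-site AGGTCA (or TGACCT) was found in the windows of Acadm and Acadvl, that is in 2 of 9 members and in 14% of all promoters. Each motif was searched on both strands, and a match is only a run of letters.

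All values are log2 values relative to the median of the same probe set over the 12 arrays. A value of 0 is thus the middle array and no level of one gene can be set against another, nor can the presence of spleen cell types be read from a level. Some arrays stood apart in genes of other cell types. The median of 17 measured erythroid markers was lowest in naïve BALB/cJ replicates 1 and 2 (-1.46 and -1.71) and immunized BALB/cJ replicate 3 (-1.13), against -0.27 to 0.68 in the other arrays. Pancreatic acinar markers (13 measured) had a median of 2.1 in naïve BALB/cByJ replicate 1 and at most 0.26 elsewhere. Pigment cell markers (8 measured) were high in naïve BALB/cJ replicates 1 and 2 (1.79 and 1.55), immunized BALB/cJ replicate 1 (0.98) and immunized BALB/cByJ replicate 2 (0.63). Heat shock markers (10 measured) were below 0 in all 6 naïve arrays (-0.25 to -0.03) and above 0 in all 6 immunized arrays (0.01 to 0.51), highest in immunized BALB/cByJ replicate 3 (0.35) and immunized BALB/cJ replicates 2 and 3 (0.29 and 0.51), the arrays of the late sample numbers described below. The part of these differences in the results below was not tested beyond the fits without such arrays given in the closing section.

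Acads, the short-chain enzyme, was lower in every BALB/cByJ spleen than in every BALB/cJ spleen, whether naïve or immunized. In naïve mice the single Acads probe set (1460216_at) read -0.45, -0.38 and -0.40 in the 3 BALB/cByJ arrays and 0.37, 0.33 and 0.42 in the 3 BALB/cJ arrays. In immunized mice it read -0.34, -0.33 and -0.38 in BALB/cByJ and 0.42, 0.50 and 0.43 in BALB/cJ. The colonies formed separate clusters with an empty stretch of 0.67 between the highest BALB/cByJ and the lowest BALB/cJ array, while the 6 arrays of a colony spanned only 0.12 (BALB/cByJ) and 0.16 (BALB/cJ). The difference, BALB/cByJ minus BALB/cJ, was -0.78 (SE 0.065, n = 3 and 3) in naïve and -0.80 (SE 0.065, n = 3 and 3) in immunized mice. On a linear scale BALB/cByJ spleens carried 58.1% and 57.5% of the BALB/cJ signal. In whole spleen, fewer cells of a type and less RNA per cell cannot be told apart. The place of the probes relative to the known deletion in Acads was not analysed here, so a lower transcript level and a probe target altered in BALB/cByJ cannot be told apart either.

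**Figure D1:**
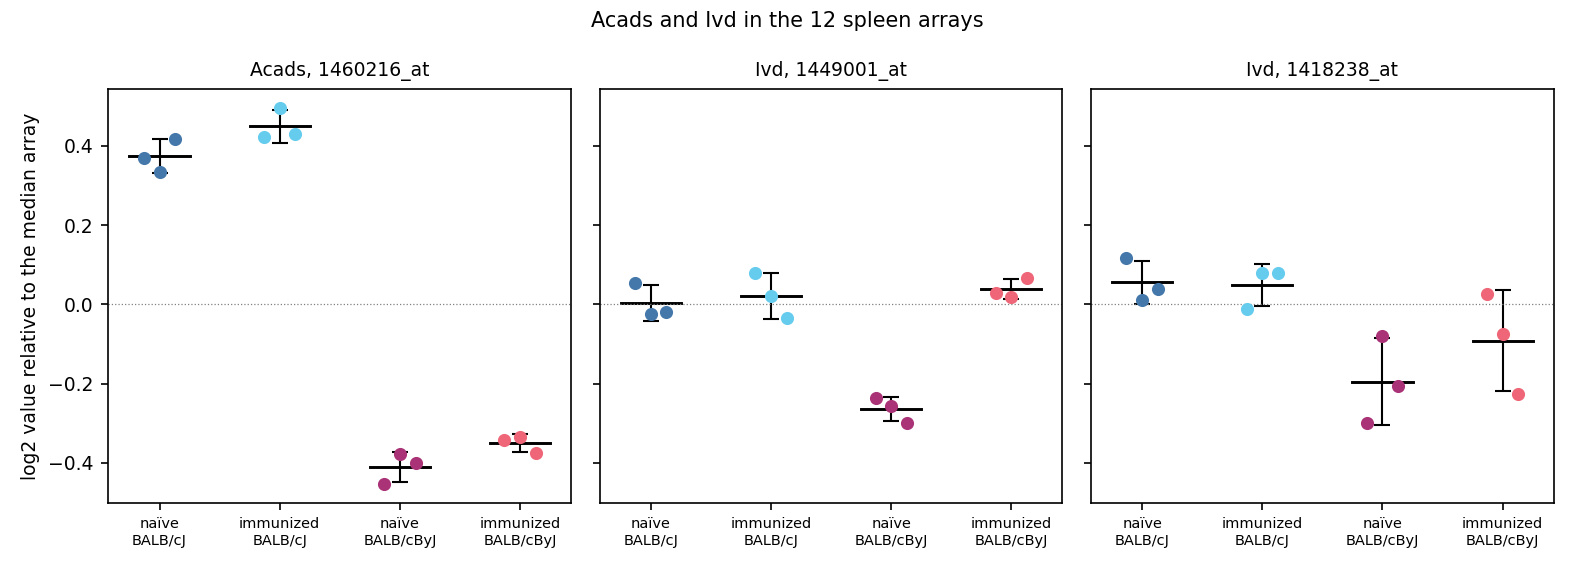
Log2 value relative to the median array (vertical axis) of the Acads probe set and both Ivd probe sets in the 4 groups. Points are arrays, horizontal lines are means and bars are SD (n = 3). Acads separates the colonies in both states, whereas Ivd 1449001_at is low only in the naïve BALB/cByJ arrays.

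Ordered by mean, the Acads level was highest in immunized BALB/cJ mice (0.45 ± 0.041, SD), followed by naïve BALB/cJ (0.37 ± 0.042), immunized BALB/cByJ (-0.35 ± 0.023) and naïve BALB/cByJ (-0.41 ± 0.039). Within each colony the immunized arrays all lay above the naïve ones, but only just. The highest naïve and lowest immunized values were -0.377 and -0.376 in BALB/cByJ, and 0.418 and 0.422 in BALB/cJ. The steps were small: 0.07 for BALB/cJ and 0.06 for BALB/cByJ (SE 0.065 each). Both steps were thus about as large as the SE of the limma fit, which draws on the spread of all probe sets. The pooled SD of Acads itself within groups was smaller (0.037) than either step. Over the main fit and its alternatives, however, the step ran from -0.08 to 0.08 in BALB/cByJ and from 0.04 to 0.10 in BALB/cJ. The immunization effects of the colonies differed by -0.01 (SE 0.092). Among all 45037 probe sets, 164 had a naïve colony difference as low as that of Acads or lower, 52 had one in immunized mice and 25 in both, Acads included each time. The immunized arrays carried early and late sample numbers, 29 to 33 and 48 to 50. The labels do not say what these numbers mean, and they are used here only as a possible batch. The difference was -0.76 among the early numbers (2 BALB/cByJ against 1 BALB/cJ array) and -0.84 among the late ones (1 against 2), so it was present in both.

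The genes whose pattern over the 12 arrays was most like that of Acads also separated the colonies. By Pearson correlation, which here mostly reflects the colony step that all 12 arrays share, the highest values belonged to Arl2bp (0.992), Rtf2 (0.992), Otud3 (0.986), Tfe3 (0.982) and Klhl25 (0.972). Their colony differences ranged in naïve mice from -3.43 (Otud3) to -0.71 (Tfe3). The most opposite patterns were those of Neto1 (-0.994), Glo1 (-0.991), Zhx2 (-0.99), 1700097N02Rik (-0.974) and Rttn (-0.973), with naïve differences between 0.44 (Rttn) and 2.86 (Neto1). Acads lay between these extremes in the size of its step.

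Ivd, the leucine pathway enzyme, had a different shape. Probe set 1449001_at read -0.24, -0.26 and -0.30 in naïve BALB/cByJ against 0.06, -0.03 and -0.02 in naïve BALB/cJ. After immunization it read 0.03, 0.02 and 0.07 in BALB/cByJ and 0.08, 0.02 and -0.04 in BALB/cJ. Only the naïve BALB/cByJ arrays were low, and the immunized colonies overlapped. The colony difference was -0.27 (SE 0.066, n = 3 and 3) in naïve and 0.02 in immunized mice. The second Ivd probe set, 1418238_at, was also lower in naïve BALB/cByJ (-0.30, -0.08 and -0.21) than in naïve BALB/cJ (0.12, 0.01 and 0.04), without overlap. In immunized mice, however, it read 0.03, -0.07 and -0.23 in BALB/cByJ against -0.01, 0.08 and 0.08 in BALB/cJ, a difference of -0.14 with overlapping groups. The probe sets of Ivd thus gave alike differences in naïve mice and unlike ones after immunization. For 1418238_at the immunized difference came to -0.01 among the early sample numbers and -0.31 among the late ones.

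**Figure D2:**
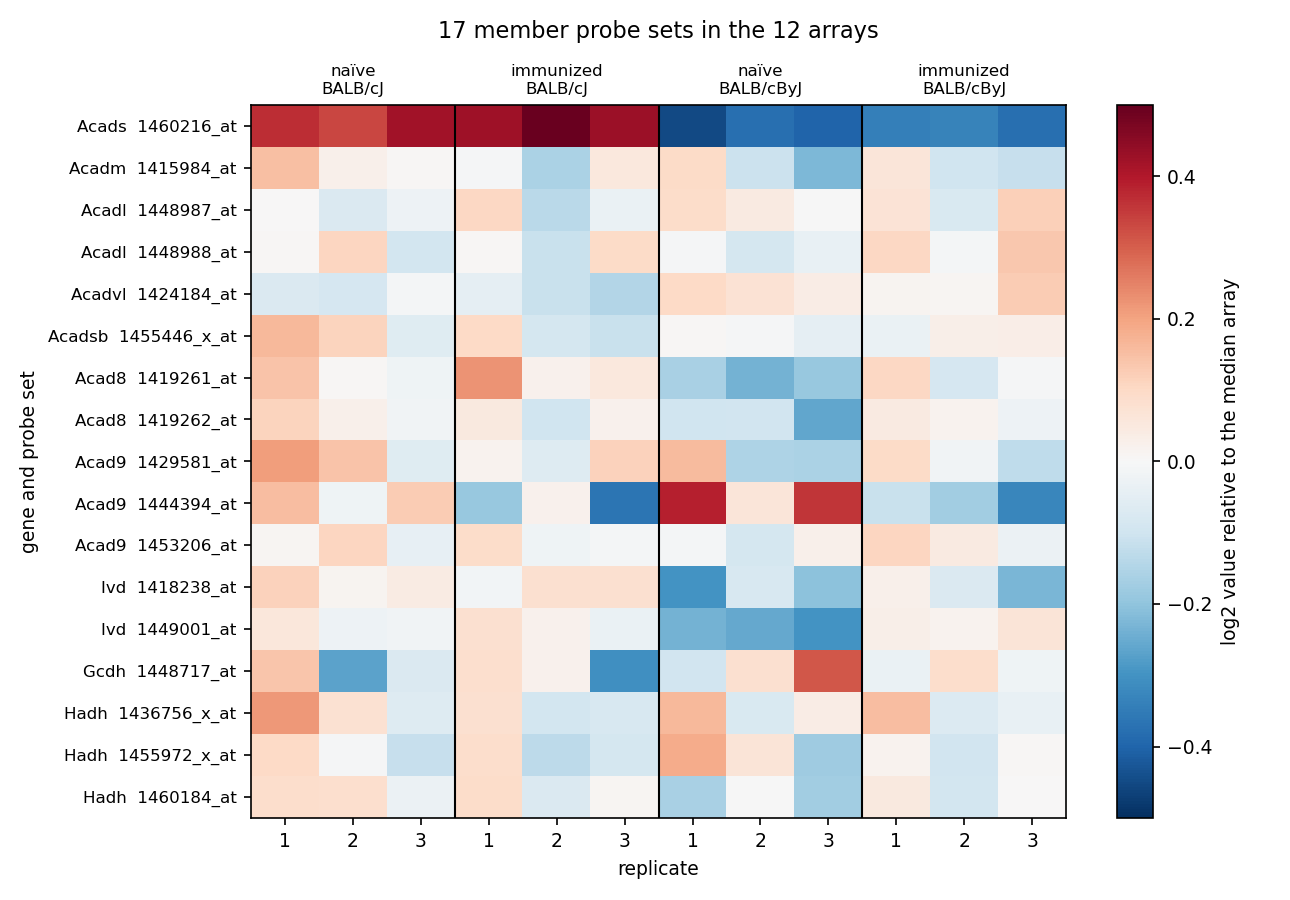
Log2 value relative to the median array (colour) of the 17 member probe sets (rows) in the 12 arrays (columns, by group and replicate). The Acads row changes colour between the colonies, and the other rows stay mostly pale.

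Acad8, which acts on isobutyryl-CoA from valine, resembled Ivd in naïve mice. Probe set 1419261_at read -0.16, -0.24 and -0.19 in naïve BALB/cByJ and 0.14, 0.01 and -0.02 in naïve BALB/cJ, a difference of -0.24 (SE 0.083, n = 3 and 3). Probe set 1419262_at of the same gene differed by -0.19, again with no overlap between the naïve colonies. In immunized mice the differences were -0.10 and 0.02, with overlapping groups. Acadvl, the very long-chain enzyme, stood the other way: it was higher in BALB/cByJ, by 0.13 (SE 0.068, n = 3 and 3) in naïve and 0.15 in immunized mice. Its arrays read 0.10, 0.07 and 0.04 in naïve BALB/cByJ against -0.07, -0.09 and -0.01 in naïve BALB/cJ. The immunized arrays read 0.01, 0.01 and 0.13 in BALB/cByJ against -0.04, -0.11 and -0.15 in BALB/cJ. Acadvl was thus the only member besides Acads whose colonies did not overlap in either state. In immunized mice its difference was 0.06 among the early sample numbers (2 BALB/cByJ against 1 BALB/cJ array). Among the late ones (1 against 2) it was 0.26. The 95% interval of Acadvl nevertheless included 0 in naïve mice (-0.02 to 0.27) and lay just above 0 in immunized mice (0.003 to 0.30). How many of all probe sets were higher without overlap in both states was not counted.

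For the remaining members the 95% intervals of the colony differences included 0 in both states. Acadm, the medium-chain enzyme, differed by -0.14 in naïve and -0.01 in immunized mice, with arrays of all groups between -0.23 and 0.15. Acadl, the long-chain enzyme, had probe set differences of 0.08 and -0.05 in naïve and of 0.06 and 0.08 in immunized mice, the first pair of signs being opposite. Acadsb, for short branched chains, differed by -0.08 and 0.04. Gcdh, the lysine and tryptophan enzyme, differed by 0.17 and 0.08 but varied most within groups of all members (pooled SD 0.18, against 0.037 for Acads), running from -0.27 to 0.14 in naïve BALB/cJ alone. The 3 probe sets of Acad9 differed by -0.15, 0.18 and -0.05 in naïve mice and the 3 of Hadh by -0.03, 0.03 and -0.16, so probe sets of 1 gene did not share a sign.

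**Figure D3:**
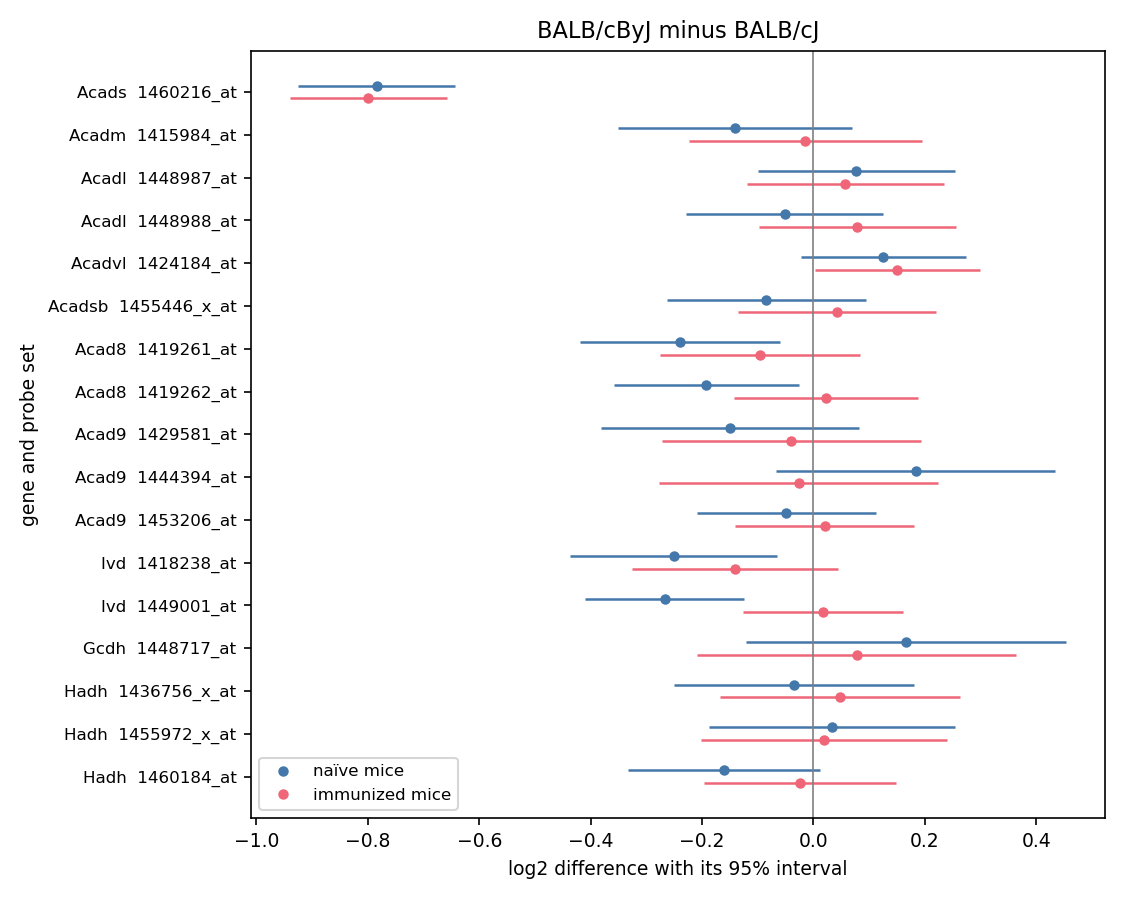
Log2 difference, BALB/cByJ minus BALB/cJ (horizontal axis), of each member probe set in naïve and immunized mice; points are differences of group means and lines are 95% intervals of the limma fit. Acads lies near -0.8 in both states and apart from every other member.

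The members also differed in how much they varied at all. The span over the 12 arrays ran from 0.197 (Acad9 1453206_at, at the 1.56 percentile of all probe sets) to 0.949 (Acads, at the 91.3 percentile), and Acad9 1444394_at came next after Acads with 0.752. Acadvl spanned 0.274 and the Acadl probe sets 0.252 and 0.244, at the 9.05, 6.03 and 5.16 percentiles of all probe sets. Over the 12 arrays, which share the colony step, Acads correlated with Acadvl at r = -0.862. With Ivd it correlated at r = 0.794 (1418238_at) and 0.527 (1449001_at). Acadm followed Acad9 at 1429581_at (r = 0.899) but less at 1453206_at (0.244) and 1444394_at (-0.005), and it correlated with Acads at r = 0.304.

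Counted over the 17 member probe sets, 2 were called in naïve mice (Acads and Ivd 1449001_at) at an adjusted p under 0.05 in limma, where 4.39% of all probe sets were called. In immunized mice 1 was called (Acads), where 0.12% of all were. Since the list was chosen with these contrasts known, nothing is read from these counts. The naïve colonies did not overlap for 6 of 17 probe sets (5 lower, 1 higher in BALB/cByJ), against 21.7% of all probe sets (11.9% lower, 9.76% higher). The immunized colonies did not overlap for 2 of 17 (1 lower, 1 higher), against 15% (6.88% lower, 8.14% higher). Acads alone was lower without overlap in both states, as were 1.64% of all probe sets. The median difference over the members was -0.08 in naïve and 0.02 in immunized mice, beside -0.01 over all probe sets in either state. For the 14 probe sets of the 8 genes other than Acads and Ivd, the 95% intervals together ran from -0.42 to 0.45 in naïve and from -0.28 to 0.36 in immunized mice. The change at Acads, about -0.8, lay outside all of them.

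No member that could be tested passed the test for immunization. Acads and Ivd were labels of a figure of the study that was chosen on these 12 arrays, so they are described without a test. Ivd 1449001_at was 0.30 (SE 0.066, n = 3 and 3) higher in immunized than in naïve BALB/cByJ mice and 0.02 higher in BALB/cJ, a difference of responses of 0.28 (SE 0.093), whereas Ivd 1418238_at was 0.10 higher in BALB/cByJ and differed by -0.01 in BALB/cJ. Among the 14 probe sets of the other 8 genes, limma called 0 in BALB/cByJ, 0 in BALB/cJ and 0 for the difference of responses between the colonies. At an unadjusted p under 0.05 there were 2 (8.3% of all probe sets), 1 (9.19%) and 0 (7.59%). The analysis of variance named in the study's methods also called 0 of these 14 for immunization in either colony. Over all probe sets limma called 0.0511% in BALB/cByJ and 0% in BALB/cJ, and 0% for the difference of responses. Naïve and immunized arrays carried different ranges of sample numbers, and no label says whether these mark a batch. Immunization and such a batch cannot be told apart. The heat shock markers, too, divided the naïve from the immunized arrays, and their part in the immunization values was not tested beyond the fit without the 4 arrays high in pancreatic or heat shock genes.

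The widest immunization value belonged to Acad9, the complex I assembly factor, at probe set 1444394_at. It read 0.39, 0.06 and 0.36 in naïve and -0.11, -0.18 and -0.33 in immunized BALB/cByJ mice, so that all immunized arrays lay below the lowest naïve one. In BALB/cJ it read 0.15, -0.02 and 0.13 in naïve and -0.19, 0.02 and -0.37 in immunized mice, with overlap. The values were -0.47 (SE 0.116, adjusted p = 0.314 in limma) in BALB/cByJ and -0.26 (adjusted p = 0.529 in limma) in BALB/cJ, and neither passed the test. The other Acad9 probe sets, 1429581_at and 1453206_at, did not share this pattern, with values of 0.04 and 0.06 in BALB/cByJ. Both Acad8 probe sets read higher after immunization in BALB/cByJ without overlap, by 0.20 (adjusted p = 0.576 in limma) and 0.16 (adjusted p = 0.603 in limma), and did not pass either. Among all 17 probe sets the groups did not overlap for 5 in BALB/cByJ (4 higher, 1 lower), against 12.1% of all probe sets (6.91% higher, 5.2% lower). In BALB/cJ they did not overlap for 1 (Acads, higher), against 17% (7.53% higher, 9.51% lower). Except at Acad9 1444394_at, the 95% intervals of the 14 tested probe sets lay within 0.5 on either side of 0 in both colonies.

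**Figure D4:**
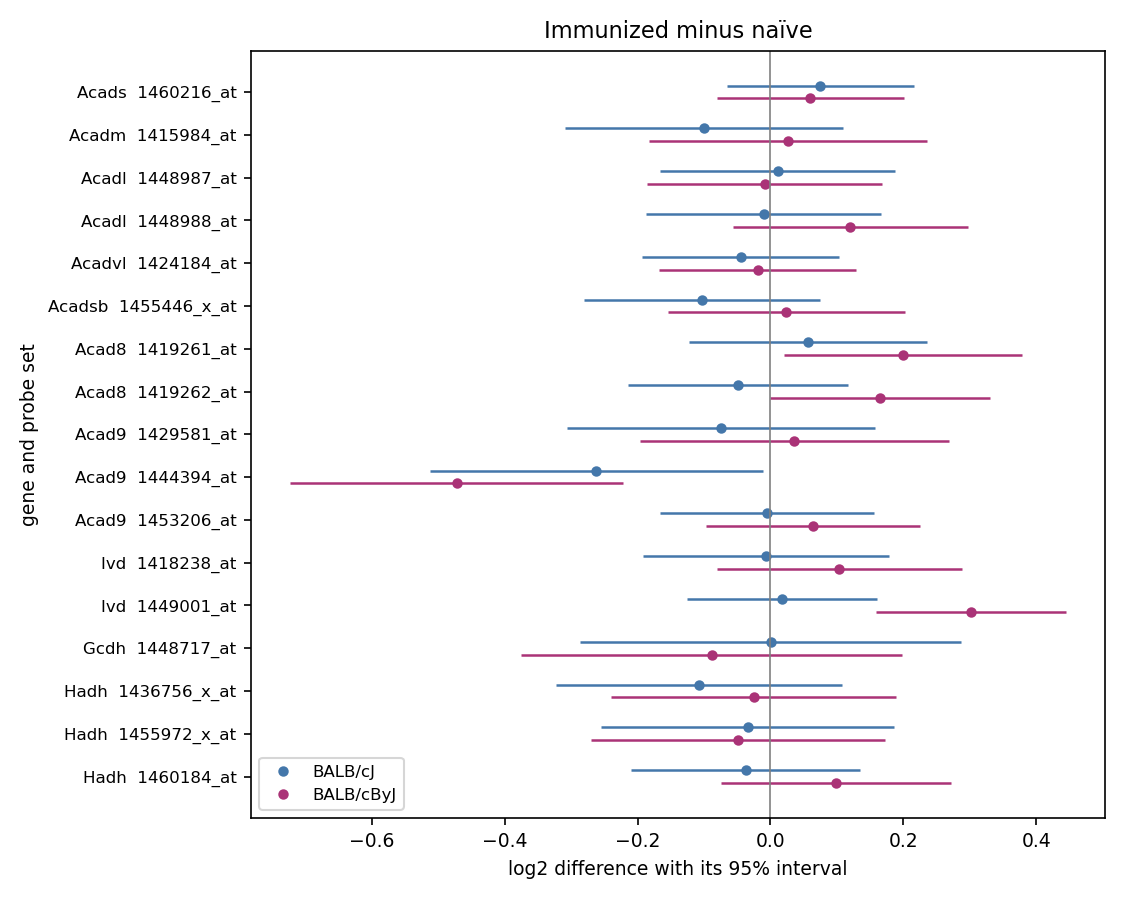
Log2 difference, immunized minus naïve (horizontal axis), of each member probe set in BALB/cJ and BALB/cByJ mice; points are differences of group means and lines are 95% intervals of the limma fit. Acad9 1444394_at lies lowest in both colonies, and Ivd 1449001_at lies at 0.30 in BALB/cByJ and at 0.02 in BALB/cJ.

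The genes beside Acads did not share its difference as a block. Of the 10 genes on each side of Acads in the gene order of the RefSeq table, 12 were measured by 28 probe sets. Of these limma called 2 in naïve mice and 0 in immunized mice, beside 4.39% and 0.12% of all probe sets. At an unadjusted p under 0.05 there were 8 and 6 of the 28, beside 18.7% and 7.92% of all probe sets. Unc119b, the next gene on one side, which encodes a carrier of lipid-modified proteins to cilia, was lower in naïve BALB/cByJ at probe set 1460688_s_at. It read -0.36, -0.30 and -0.19 in naïve BALB/cByJ against 0.03, 0.11 and -0.01 in naïve BALB/cJ, a difference of -0.32 (SE 0.075, adjusted p = 0.032 in limma), but -0.04 in immunized mice. The call was lost under 14 of 25 alternatives, and the other Unc119b probe sets, 1460733_at and 1437961_x_at, gave -0.23 (adjusted p = 0.126 in limma) and 0.06 in naïve mice.

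Sppl3, a nearby gene for an intramembrane protease of the signal peptide peptidase family, went the opposite way from Acads at probe set 1422307_at. It read 0.65, 0.37 and 0.27 in naïve BALB/cByJ against -0.24, -0.41 and -0.21 in naïve BALB/cJ, and 0.42, 0.37 and 0.15 in immunized BALB/cByJ against -0.45, -0.15 and -0.24 in immunized BALB/cJ. The colonies were apart in both states, by 0.71 (SE 0.118, adjusted p = 0.00979 in limma) in naïve and 0.60 (adjusted p = 0.131 in limma) in immunized mice, although the naïve call was lost under 5 of 26 alternatives. The other Sppl3 probe sets, 1423658_at and 1451073_at, gave 0.08 and 0.04 in naïve mice with overlapping colonies. Another neighbour, Rnf10, was not called but was also higher in BALB/cByJ without overlap in both states at 1423102_a_at. Its differences there were 0.35 in naïve and 0.35 in immunized mice, against 0.27 and 0.40 at 1456689_at and 0.08 and -0.01 at 1459209_at.

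**Figure D5:**
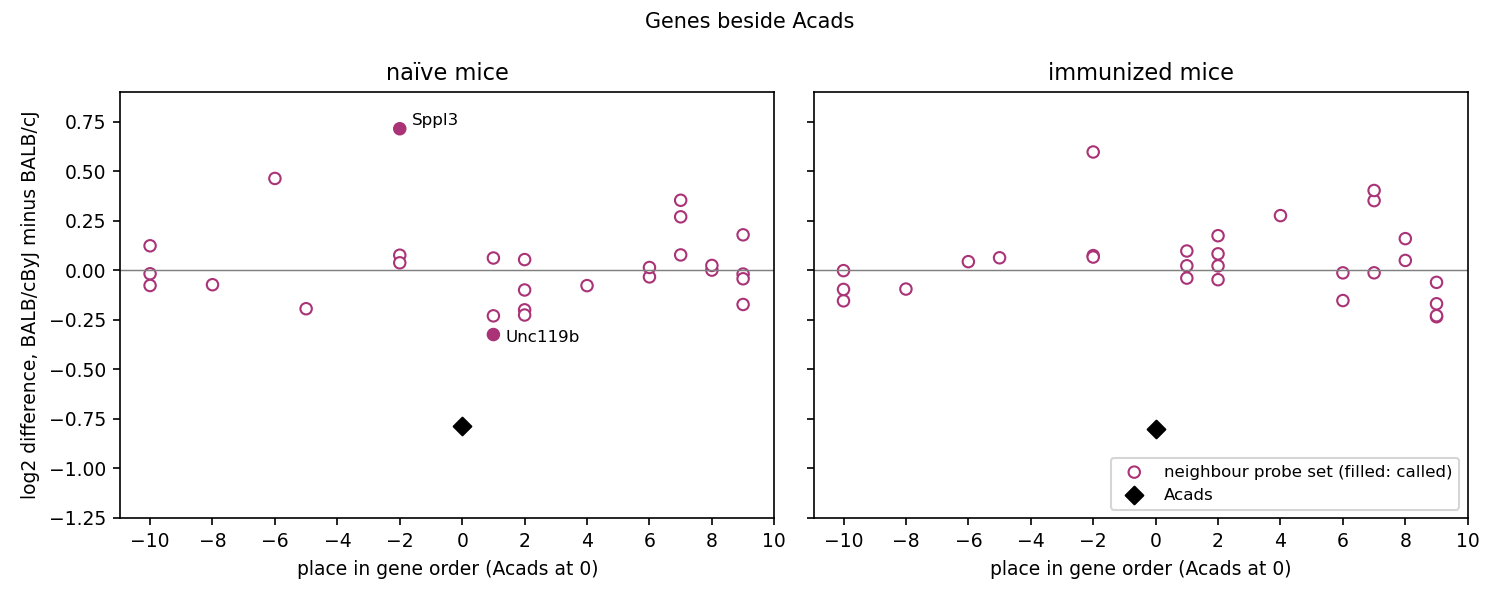
Log2 colony difference, BALB/cByJ minus BALB/cJ (vertical axis), of probe sets of the genes beside Acads (horizontal axis, place in the gene order with Acads at 0) in naïve and immunized mice. Filled points passed limma's test, and no neighbour lies near the Acads diamond at -0.8.

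Genes of the surrounding pathways did not pass the test in any contrast. Of 92 listed genes 84 were measured by 169 probe sets, and limma called 0 of the 84 between the naïve colonies (19 at an unadjusted p under 0.05), 0 between the immunized colonies (9), 0 with immunization in BALB/cByJ (12) and 0 in BALB/cJ (12). The analysis of variance of the methods also called 0. The gene counts at an unadjusted p have no share of all genes beside them. Counted by probe set, limma's unadjusted p fell under 0.05 for 22 of the 169 in the naïve colony contrast, beside 18.7% of all probe sets. For the colony contrast after immunization there were 9, beside 7.92%. For the immunization contrasts there were 13 in BALB/cByJ, beside 8.3%, and 16 in BALB/cJ, beside 9.19%. Of all named genes, 7.39% had at least 1 probe set called by limma between the naïve colonies, 0.165% between the immunized ones, 0.11% with immunization in BALB/cByJ and 0% in BALB/cJ. The median over the 169 probe sets was -0.03 between the naïve colonies and 0.01 between the immunized ones, near the medians over all probe sets.

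The genes named next had the smallest p of their list and contrast, and each is given by its probe set of smallest p, which is an extreme of that gene's probe sets. The gene mean, where given, is the fit on the mean over the probe sets of a gene. Among mitochondrial fatty acid oxidation genes (22 of 24 measured), Crat, which moves acetyl groups between CoA and carnitine, gave a naïve colony difference of 0.51 (adjusted p = 0.0845 in limma), while its other probe sets gave 0.21 and 0.03 and its gene mean 0.25. It turned to -0.09 when the erythroid markers were made a covariate. The carnitine importer Slc22a5 gave -0.20 at both of its probe sets (adjusted p = 0.176 in limma for the lower p). The next list (8 of 8 measured) held genes around electron transfer flavoprotein, which takes up the electrons of the acyl-CoA dehydrogenases. In it Etfbkmt, a methyltransferase of the flavoprotein's β subunit, gave 0.29 (adjusted p = 0.162 in limma) at one probe set and 0.04 at the other. Acad11, a related acyl-CoA dehydrogenase, gave -0.32 (adjusted p = 0.119 in limma) and -0.29, and the lower of these became -0.08 with the erythroid covariate.

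Among branched-chain amino acid, lysine and propionate genes (23 of 25 measured), Dhtkd1, an enzyme of lysine breakdown with a single probe set, gave a naïve difference of -0.42 (adjusted p = 0.0874 in limma), which became -0.18 with the erythroid covariate. Aldh7a1, of the same pathway, gave -0.24 (adjusted p = 0.0875 in limma) at 1460167_at, but its other probe sets gave 0.11 and 0.04 and its gene mean was -0.03. Of the peroxisomal genes (14 of 16 measured), Scp2, whose product acts as a thiolase and sterol carrier, gave -0.25 (adjusted p = 0.117 in limma) at 1426219_at, whereas its other probe sets gave 0.21, 0.05 and -0.02 and its gene mean was -0.00277. Among PPAR and ERR regulators and targets (14 of 16 measured), the PPAR target Angptl4, an inhibitor of lipoprotein lipase, gave -0.86 (adjusted p = 0.0609 in limma) at one probe set and -0.13 at the other, with a gene mean of -0.50. The receptor Pparg, with a single probe set, gave -0.44 (adjusted p = 0.0674 in limma), and -0.18 with the erythroid covariate. None of these differences passed the threshold, and each has the naïve BALB/cJ arrays with low erythroid and high pigment cell markers on its other side.

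With immunization the widest pathway value lay at 1 probe set of Bcat1, the cytosolic enzyme that removes the amino group of branched-chain amino acids, upstream of Ivd, Acad8 and Acadsb. Probe set 1450871_a_at read -0.33, -0.39 and -0.27 in naïve and 0.28, 0.89 and 1.31 in immunized BALB/cByJ mice. In BALB/cJ it read -0.07, 0.00 and -0.40 in naïve and 0.00, 0.05 and 0.11 in immunized mice. All immunized BALB/cByJ arrays were above all others, with a wide spread among them. The difference in BALB/cByJ was 1.15 (SE 0.194, adjusted p = 0.0803 in limma). It was 1.43 without immunized BALB/cByJ replicate 1 (adjusted p = 0.0057 in limma) and 0.91 without replicate 3 of that group. The other Bcat1 probe sets gave 0.28 and 0.02, and the gene mean was 0.49. Between the immunized colonies 1450871_a_at differed by 0.77 (adjusted p = 0.344 in limma), the other probe sets by 0.28 and -0.06.

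The other pathway genes named between the immunized colonies did not pass either. Nrip1, a corepressor of nuclear receptors, gave -0.90 (adjusted p = 0.528 in limma) at 1418469_at alone, since its other 5 probe sets lay between 0.04 and 0.15 and its gene mean was -0.09. Ppard, a fatty acid sensing receptor, gave 0.23 (adjusted p = 0.66 in limma) and -0.12 at its probe sets, and Crot, which makes carnitine esters of shortened chains, -0.27 and 0.10. Ehhadh, the peroxisomal bifunctional enzyme, gave 0.32 at its single probe set. Etfbkmt gave 0.30 and 0.10, and Slc25a32, the mitochondrial flavin carrier, -0.33, -0.18 and -0.14, so that the probe sets of these genes shared a sign. Auh, which acts after Ivd in leucine breakdown, gave 0.25 by probe set and -0.01 by gene mean, and Acad10 likewise turned from 0.14 to -0.02.

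With immunization of BALB/cByJ mice, the values of Pdk4 and Nrip1 rested in part on single arrays. Pdk4, the PPAR target that restrains glucose oxidation, read -0.02, -0.83 and -0.71 in naïve and -0.05, -0.29 and 1.52 in immunized BALB/cByJ mice, a difference of 0.91 (adjusted p = 0.587 in limma) that was 0.35 without immunized BALB/cByJ replicate 3, the array of this group with the highest heat shock markers. Nrip1 1418469_at differed by -0.74 (adjusted p = 0.574 in limma), by -0.35 without naïve BALB/cByJ replicate 1 and by -1.19 without naïve BALB/cByJ replicate 2. Acsl4, which activates long-chain polyunsaturated fatty acids, gave 0.36, 0.35 and 0.11 at its probe sets, and Ehhadh gave 0.33. In BALB/cJ, Esrrg, a nuclear receptor that drives oxidative genes, gave -0.71 (adjusted p = 0.323 in limma) at 1457896_at, -0.14 and 0.09 at its other probe sets and -0.26 as a gene mean. Its coactivator Ppargc1a read 0.68, 0.45 and 0.00 in naïve and 0.01, -0.22 and -0.01 in immunized BALB/cJ mice at 1434099_at, so the naïve arrays that stood high were replicates 1 and 2, those with low erythroid and high pigment cell markers. The difference was -0.45 (adjusted p = 0.378 in limma), -0.30 without naïve BALB/cJ replicate 1 and -0.11 without the 4 arrays high in pigment cell genes.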

How the data were processed

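Spleen RNA of 12 female mice (3 in each of 4 groups, from separate animals) was measured on Affymetrix arrays. The deposited values are log2 values made by the authors with robust multi-array averaging (RMA), with the median of each probe set over the 12 arrays subtracted; the log base is not stated and was read as the log2 that RMA gives. Signal levels, background and detection were thus not available to filters. Control probe sets (64) were left out, and symbols came from the platform annotation. Probe sets naming several genes (932) or none (9160) kept their place in the adjustment. The 4 group means were estimated by limma (version 3.58.1, R 4.3.3) over 45037 probe sets with Benjamini-Hochberg adjustment, and tested on simulated data. Promoters and figures were made with Python 3.11.15.

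The members and lists were chosen with earlier results of these data known. Named were every member, pathway genes among the 2 of smallest p per list and contrast, called neighbours of Acads, and the 5 genes most and 5 least like Acads. The neighbour Rnf10 was added for its separation of the colonies in both states. The study's methods used analysis of variance, run as 1 of 26 alternatives. Same-numbered replicates deviated together in some pairs of arrays and not in others (r from -0.289 to 0.368 over 18 pairs, 9 above 0.1), and no label says that a number marks a shared batch, so the main fit has no block. The number of arrays limits the precision, and no arrays were identical.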

Additional observations from a re-analysis of the deposited data

How the results depend on the processing

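The Acads difference kept its direction under all alternatives tried. In naïve mice it was -0.74 with array weights, -0.85 with the erythroid markers as a covariate, -0.83 without the arrays high in pigment cell genes, and -0.80 to -0.76 without each array in turn. In immunized mice it was -0.97 after quantile normalization, -0.76 without the arrays high in pancreatic or heat shock genes, and -0.81 to -0.78 without each array in turn. Quantile normalization was applied to values already centred per probe set, so it is not a normalization of signal levels. With the replicate number as a block the differences were -0.78 and -0.80, and the counts of members called stayed at 2 and 1. The list was chosen with the colony contrasts known, so nothing is read from the counts of members called between the colonies. The members called between the naïve colonies went from 2 to 1 with quantile normalization, a trended and robust variance, only the groups compared, the sample-number run as a block, a fold of 1.2, the erythroid covariate or without the pancreatic and heat shock arrays, and to 0 without the pigment arrays. The call lost first was that of Ivd 1449001_at, whose difference stayed between -0.29 and -0.22 under all 26 alternatives. Leaving out the pigment arrays leaves naïve BALB/cJ with 1 array assumed to vary like the others. Leaving out single arrays gave 1 to 2, and the count changed in 9 of these 12 fits, each time by the loss of Ivd 1449001_at. Between the immunized colonies the count went from 1 to 0 without the pigment arrays, where the Acads difference was -0.82, and was 1 to 1 without single arrays. By analysis of variance 1 member was called with immunization in BALB/cByJ (Ivd) and 1 in BALB/cJ (Acads, a step of 0.07). Its adjustment for multiple testing covered only the test over all 4 groups, in which the colony difference of Acads also counts. Both genes were picked by the study on these arrays, so nothing is read from these calls. Pathway genes called between the naïve colonies went from 0 to 1 with quantile normalization, 2 with the trended variance, 10 with array weights, 1 with the replicate block (Pparg), 1 at the level of genes (probe sets averaged per gene), 6 without the pancreatic and heat shock arrays and 0 to 3 without single arrays. Between the immunized colonies they were 0 to 1 without single arrays. With immunization they were 1 in BALB/cByJ with quantile normalization (Bcat1), 0 to 1 without single arrays, and 2 in BALB/cJ with array weights. Directions turned for Crat between the naïve colonies (-0.0876, erythroid covariate), for Acad10 (-0.0166) and Auh (-0.0101) between the immunized colonies at the level of genes, for Rfk (0.000144, BALB/cByJ) and Scp2 (0.00672, BALB/cJ) with immunization at the level of genes, and for Acad11 with immunization in BALB/cJ (0.0462 with the erythroid covariate, 0.0124 without the pancreatic and heat shock arrays, and -0.131 to 0.0395 without single arrays, above 0 without naïve BALB/cJ replicate 1 or immunized BALB/cJ replicate 2). This list of turned directions covers only values given with a test. Small differences of members described without a test also crossed 0 over the main fit and the alternatives. Among them, the Acads step with immunization in BALB/cByJ ran from -0.078 to 0.077. Naïve colony differences ran from -0.25 to 0.16 for Acad9 1429581_at and from -0.13 to 0.13 for Acadl 1448988_at. They ran from -0.11 to 0.32 for Gcdh and from -0.23 to 0.08 for Acadm. The causes were not tested. A single probe set measured Acads, 3 arrays a group bound the precision, and values centred per probe set allow no filter on dim signal.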
